A study of Homo sapiens with 8 samples.

Results

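The genes described here build the centromere and the kinetochore and run the spindle checkpoint. A list of 49 symbols was taken from known function, with earlier results of these data known, so the choice was not independent of them. All 49 were among the 18216 genes of the count table, SGO1 and SGO2 through the older symbols SGOL1 and SGOL2. All 49 also passed the filter on low values, which left 14074 genes for testing. The list holds CENP-A and the factors that load it (4 genes), the constitutive centromere-associated network (13), the KMN network with ZWINT (9), the SKA complex (3), the fibrous corona with ZWILCH (3), the spindle checkpoint (6), the chromosomal passenger complex (4), the shugoshins (2) and spindle assembly factors (5).

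Each chromosome carries a centromere marked by nucleosomes that hold the histone H3 variant CENP-A. On this base the constitutive network assembles, the KMN network (the KNL1, MIS12 and NDC80 complexes) docks on it in mitosis, and NDC80 binds microtubules. Unattached kinetochores feed the spindle checkpoint, which delays anaphase, and the chromosomal passenger complex with the kinase Aurora B corrects wrong attachments. Many of these genes are transcribed mainly in late S, G2 and M phase, and p53 activation, which stops the cell cycle, is known to lower their transcripts.

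PolyA RNA was sequenced from IMR90, a strain of primary human lung fibroblasts, at passage 28, with 2 libraries in each of 4 groups. The groups were DMSO, the vehicle, and Nutlin-3a at 3 µg/mL for 6 h, 9 h and 12 h. Nutlin-3a blocks the binding of MDM2 to p53 and so stabilises p53. Cells were kept at 3% oxygen and 5% carbon dioxide in DMEM plus 10% serum, plated at 300k per mL, and treated a day later. A single DMSO group served all 3 times, so the comparisons with DMSO share those libraries, and the labels leave the length of DMSO exposure unstated. Nor do they say whether replicates were separate cultures, so the p-values here reflect the spread among these libraries alone, which could be technical.

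Each library held 21.9 to 33.6 M (1e6) gene reads, and 3 reads corresponded to a normalized count of 2.46 to 3.75. The lowest member value in any library was 60.6, for CENPP, so every member was counted well above that floor. The treatment showed in CDKN1A, the p53 target that encodes the kinase inhibitor p21, with log2 changes from DMSO of 3.47, 3.85 and 3.90 at 6, 9 and 12 h. MDM2 changed by 3.03, 3.10 and 3.13 and GDF15 by 4.52, 4.07 and 3.77. All 11 fibroblast markers were in the table, with summed normalized counts of 1.28 to 1.31 M in DMSO, 1.24 to 1.25 M at 6 h, 1.46 to 1.47 M at 9 h and 1.51 to 1.54 M at 12 h. COL1A1, COL1A2 and FN1 made up most of this sum. At 12 h, 5 of these 11 markers rose, beside 18.5% of all tested genes, and 2 fell, beside 21.4%. Among markers of other cells, 3 of 7 epithelial, 4 of 5 endothelial and 3 of 5 immune genes were listed. CDH1, CDH5, PTPRC and CD14 had normalized counts of at most 6.73 in every library, and CLDN4, TEK and CD68 made up most of their lists' sums. The epithelial sum was 359 to 393 at 12 h and 273 to 289 in DMSO, the endothelial sum 1433 to 1503 at 12 h and 1967 to 2071 in DMSO, and the immune sum 908 to 958 at 12 h and 746 to 900 in DMSO. The part of these shifts in the results was not tested.

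Transcripts of the centromere and kinetochore genes fell across nearly the whole set, and the decrease deepened with time. Summed over the 49 genes, they took 3368 and 3441 per M gene counts in the DMSO libraries, 2233 and 2238 at 6 h, 1485 and 1510 at 9 h, and 1097 and 1115 at 12 h. The 4 groups did not overlap in this sum. Relative to DMSO, 46 of 49 genes fell at 6 h, beside 20.6% of all tested genes, 47 fell at 9 h (19.1% of all tested genes) and 48 fell at 12 h (21.4%), by limma with Benjamini-Hochberg adjustment over all tested genes at a threshold of 0.05. In the same test 0 rose at any time, also at an unadjusted p under 0.05, beside 16.1%, 16.2% and 18.5% of all tested genes at 6, 9 and 12 h. By edgeR on the recovered reads 46, 46 and 47 fell (19.2%, 18.2% and 20.0% of tested genes) and 0 rose (16.9%, 18.1% and 21.4%). By DESeq2 on those reads, and equally in the authors' deposited table, 45, 46 and 47 fell (17.0%, 16.4% and 18.4%) and 0 rose (12.1%, 12.0% and 13.7%). The median log2 change of the 49 was −0.64 at 6 h, −1.27 at 9 h and −1.69 at 12 h, where the medians of all tested genes were −0.01, 0.01 and 0.01. In bulk RNA, fewer cells in late S, G2 and M phase and less of each transcript per cell cannot be told apart.

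At 12 h, 37 genes had fallen at least 2-fold (3.62% of all tested genes) and 16 at least 4-fold (0.931%). For all 49, both 12 h libraries lay below both DMSO libraries, a separation that 33.5% of all tested genes showed. In 39 the groups were fully ordered, with DMSO above 6 h, 6 h above 9 h and 9 h above 12 h and no overlap between neighbours, a pattern found in 5.55% of all tested genes. The other 10 were MIS18A, CENPC, CENPP, CENPT, CENPW, NSL1, MIS12, PMF1, SKA2 and MAD1L1.

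**Figure D1:**
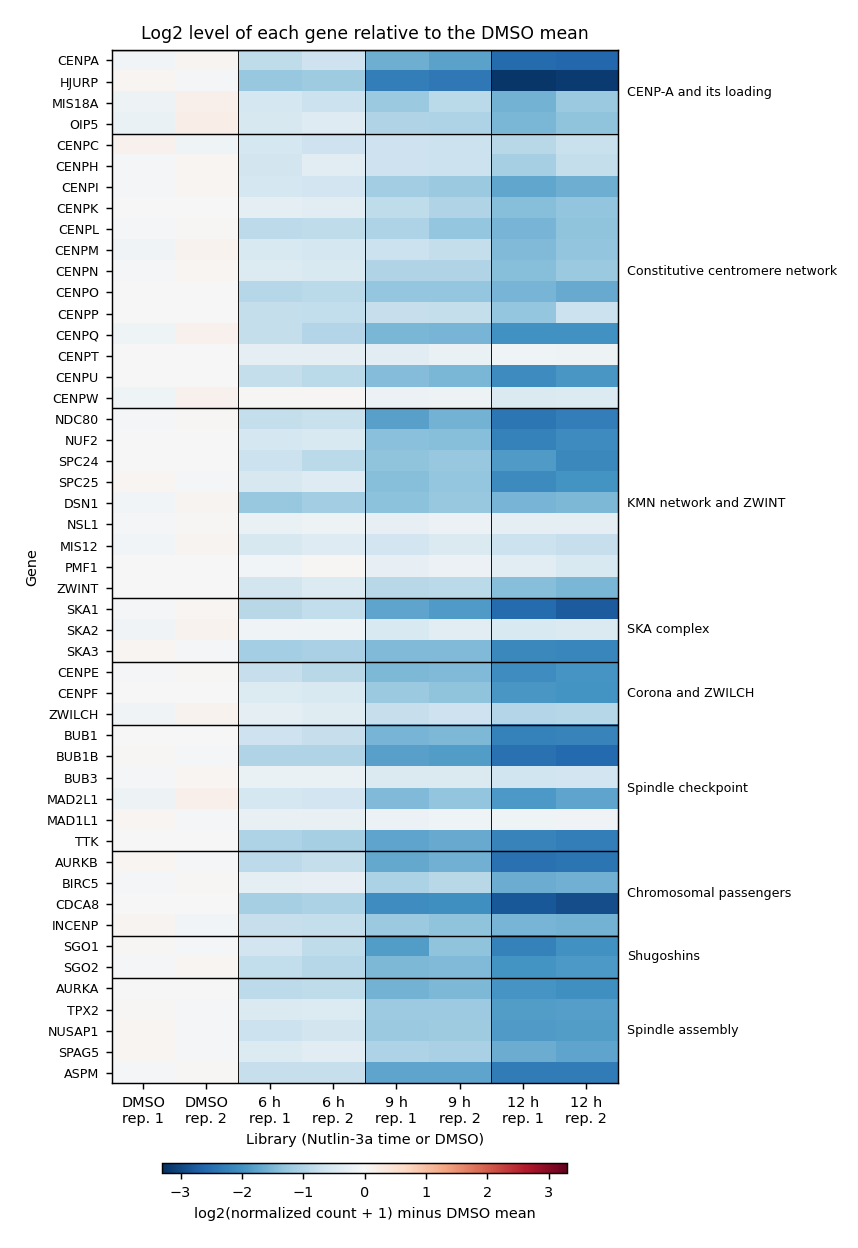
Log2(normalized count + 1) of each of the 49 genes (rows, by role) in each of the 8 libraries (columns), minus the gene's mean over the 2 DMSO libraries. Blue, below the DMSO mean, deepens from 6 h to 12 h in nearly all rows, is darkest for HJURP and CDCA8, and stays pale for CENPT, CENPW, NSL1, PMF1, SKA2 and MAD1L1.

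Starting sites of a few members are printed here because they hold the cell cycle promoter elements described further on. Each is the stretch from 150 bases before to 30 bases after the annotated start in RefSeq, build GRCh38.p14, written 5′ to 3′ along the transcribed strand. Capitals mark matches to the CHR (cell cycle genes homology region, TTTGAA or TTCGAA on either strand) and to the CCAAT box (CCAAT on either strand, which reads ATTGG on the other). CENPA lies at chr2:26785906-26786085 on the plus strand, NDC80 at chr18:2571407-2571586 (plus), BUB1B at chr15:40160919-40161098 (plus), CDCA8 at chr1:37692366-37692545 (plus) and INCENP at chr11:62123861-62124040 (plus). NSL1 at chr1:212791748-212791927 (minus) and MAD1L1 at chr7:2232916-2233095 (minus) are shown for contrast, as genes with small changes and with neither motif in the stretch. The printed genes were picked for these features and do not stand for all members. In the longer windows described further on, CENPC and CENPW had both motifs, with 12 h log2 changes of −0.83 and −0.46. CENPI, DSN1 and CENPE had neither motif there, with changes of −1.67, −1.51 and −1.99.
CENPA: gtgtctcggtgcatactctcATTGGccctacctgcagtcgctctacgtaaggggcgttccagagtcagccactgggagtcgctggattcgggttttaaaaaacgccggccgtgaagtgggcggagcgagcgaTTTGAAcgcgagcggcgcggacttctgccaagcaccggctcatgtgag
NDC80: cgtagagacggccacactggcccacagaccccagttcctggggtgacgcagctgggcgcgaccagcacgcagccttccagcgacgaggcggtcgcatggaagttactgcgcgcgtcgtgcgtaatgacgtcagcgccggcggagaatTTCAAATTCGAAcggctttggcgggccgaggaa
BUB1B: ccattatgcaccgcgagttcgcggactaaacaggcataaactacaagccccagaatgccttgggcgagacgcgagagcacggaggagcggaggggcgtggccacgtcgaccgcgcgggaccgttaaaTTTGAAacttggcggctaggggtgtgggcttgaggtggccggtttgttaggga
CDCA8: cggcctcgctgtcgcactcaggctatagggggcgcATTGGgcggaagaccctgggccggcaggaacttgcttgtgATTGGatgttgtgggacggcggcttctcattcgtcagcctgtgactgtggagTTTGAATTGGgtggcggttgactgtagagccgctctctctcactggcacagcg
INCENP: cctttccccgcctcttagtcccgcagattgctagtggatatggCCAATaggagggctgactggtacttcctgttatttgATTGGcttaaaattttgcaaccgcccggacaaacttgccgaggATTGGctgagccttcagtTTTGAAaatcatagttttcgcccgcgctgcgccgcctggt
NSL1: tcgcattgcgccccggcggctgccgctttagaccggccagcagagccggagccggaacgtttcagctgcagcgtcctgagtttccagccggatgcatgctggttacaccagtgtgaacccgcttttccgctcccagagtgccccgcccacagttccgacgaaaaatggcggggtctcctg
MAD1L1: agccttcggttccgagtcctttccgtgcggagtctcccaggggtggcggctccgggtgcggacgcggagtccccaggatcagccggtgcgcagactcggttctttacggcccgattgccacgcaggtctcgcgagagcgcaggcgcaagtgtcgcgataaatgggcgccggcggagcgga

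Among the genes that set the centromere's identity, all 4 fell at every time, with median log2 changes of −0.70, −1.36 and −1.99 at 6, 9 and 12 h. HJURP, the chaperone that deposits CENP-A, had the largest decrease of all 49 genes. Its normalized counts were 2329 and 2141 in DMSO, 936 and 996 at 6 h, 461 and 437 at 9 h, and 241 and 248 at 12 h. The groups were far apart at each step, and the log2 change at 12 h was −3.19 ± 0.07 (SE), or 9.11-fold lower than DMSO (limma, adjusted p = 4.03e-18). CENPA, which encodes the histone variant itself, had 529 and 595 in DMSO, 313 and 349 at 6 h, 183 and 165 at 9 h, and 94.9 and 91.6 at 12 h. These groups did not overlap either, and the 12 h change was −2.58 ± 0.11. MIS18A and OIP5 (MIS18 beta), subunits of the complex that licenses the centromere for loading, had smaller log2 changes at 12 h, of −1.38 and −1.41. OIP5 shares 38% of its annotated exon bases with the opposite-strand gene OIP5-AS1, and since the strand setting of the counting is not given, its reads are uncertain. Its call at 6 h (−0.47) was also lost without DMSO replicate 2, at a log2 change of −0.25, and without 6 h replicate 1, at −0.42. With all libraries, the call was lost in the limma fit without an intensity trend.

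In the constitutive network 12 of 13 genes fell at 6 and 9 h and all 13 at 12 h, with medians of −0.61, −0.91 and −1.36. CENPU, a subunit of the CENP-O group that helps bring the kinase PLK1 to the kinetochore, led this network. It had 1393 and 1420 normalized counts in DMSO, 816 and 764 at 6 h, 525 and 492 at 9 h, and 331 and 369 at 12 h. Each later group lay wholly below the one before it, and the 12 h change was −2.01 ± 0.07. CENPQ and CENPO, of the same group, changed by −2.0 and −1.60 at 12 h, and CENPI, which forms a subcomplex with CENPH, CENPK and CENPM, by −1.67.

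Subunits of one assembly did not always move alike. CENPP, in the same group as CENPU and CENPQ, changed by −0.80, −0.78 and −0.99, with counts of 146 and 148 in DMSO and of 60.6 to 89.5 in all treated libraries. Its 12 h libraries, at 60.6 and 89.5, spanned the values of the 6 h and 9 h libraries. CENPC, which binds the CENP-A nucleosome directly, changed by −0.63, −0.70 and −0.83, with no call between Nutlin-3a times. CENPP shares 38% of its exon bases with IPPK and CENPO 27% with ADCY3, both on the opposite strand, so the reads of both members are uncertain.

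The smallest changes of the network were those of the histone-fold pair CENPT and CENPW. CENPT, which carries a separate docking arm for NDC80, had 1289 and 1274 in DMSO, 1043 and 1052 at 6 h, 1009 and 1102 at 9 h, and 1158 and 1139 at 12 h. All treated libraries were below DMSO, with the 12 h pair above the 6 and 9 h pairs, and the log2 changes were −0.29, −0.28 and −0.16 ± 0.06. The call at 12 h was marginal (limma, adjusted p = 0.0457) and was lost in 16 of the alternatives tried, edgeR and DESeq2 among them. CENPW had 699 and 844 in DMSO, 791 and 785 at 6 h, 673 and 680 at 9 h, and 554 and 559 at 12 h. Its 6 h libraries lay between the DMSO libraries, and against DMSO it was called only at 12 h (−0.46). At 9 h its change was −0.18 with all libraries and −0.32, then called, without DMSO replicate 1.

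**Figure D2:**
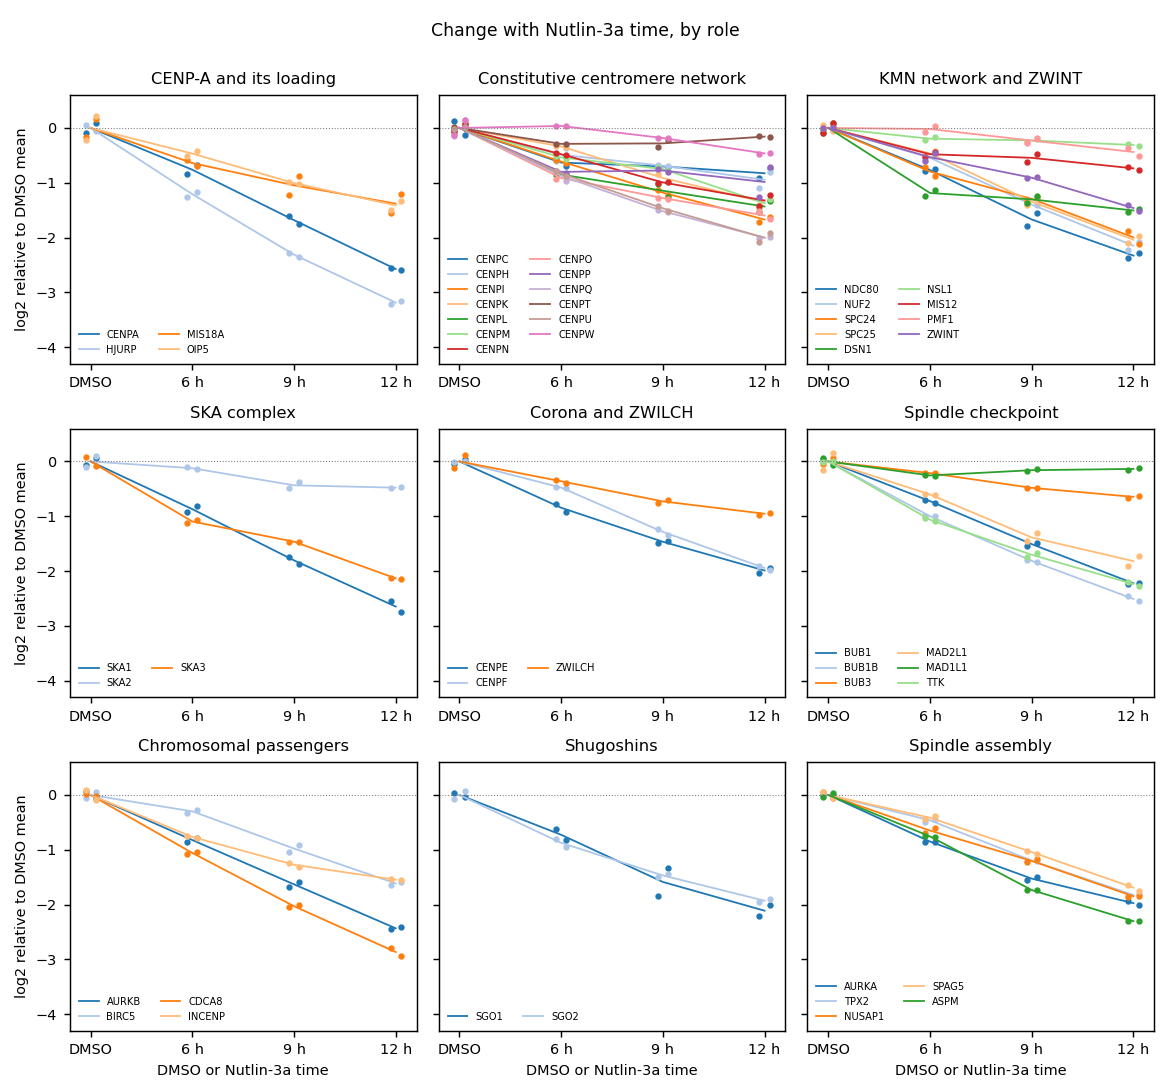
Log2(normalized count + 1) relative to the DMSO mean (vertical axis) in DMSO and at 6, 9 and 12 h of Nutlin-3a (horizontal axis), in a panel for each role. Points are single libraries, offset sideways by replicate, and lines join group means; HJURP reaches −3.19 at 12 h, whereas CENPT, CENPW, SKA2 and MAD1L1 stay above −0.50.

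The KMN network, the microtubule-binding part of the kinetochore, showed a contrast between its complexes. In all, 8 of its 9 genes (ZWINT included) fell at 6 and 9 h and 9 at 12 h, with medians of −0.53, −1.29 and −1.51. The 4 subunits of the NDC80 complex moved together. NDC80 had 1390 and 1466 in DMSO, 823 and 853 at 6 h, 412 and 486 at 9 h, and 274 and 292 at 12 h. These groups did not overlap, and the change at 12 h was −2.33 ± 0.08, or 5.03-fold lower than DMSO (limma, adjusted p = 2.12e-15). At 12 h the log2 changes of NUF2, SPC25 and SPC24 were −2.15, −2.04 and −2.0.

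The MIS12 complex, the platform to which NDC80 is fixed, averaged −0.47, −0.58 and −0.75 over its 4 subunits at 6, 9 and 12 h, where the NDC80 complex averaged −0.64, −1.43 and −2.13. At 12 h the 2 libraries gave −0.73 and −0.77 for the MIS12 complex and −2.14 and −2.11 for the NDC80 complex, so the difference was far larger than the spread between libraries. The difference between the complexes was not put to a test of its own, since subunits are not replicates. Within the MIS12 complex, DSN1, which carries the site where Aurora B acts on the complex, stood apart. It had 842 and 958 in DMSO, 380 and 407 at 6 h, 349 and 378 at 9 h, and 309 and 322 at 12 h. DSN1 was thus well below DMSO by 6 h, with log2 changes of −1.19, −1.30 and −1.51 ± 0.09. It fell further over the whole span, at 12 h against 6 h (−0.32, limma, adjusted p = 0.00688), while the single steps of −0.12 at 9 h against 6 h and −0.20 at 12 h against 9 h were not called. The call over the whole span was lost without 6 h replicate 2, at −0.27, and without 12 h replicate 1, at −0.29. The other 3 subunits averaged −0.23, −0.33 and −0.50, with 12 h changes of −0.74 for MIS12, −0.44 for PMF1 and −0.31 for NSL1.

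NSL1 had 950 and 1018 in DMSO, 843 and 874 at 6 h, 820 and 861 at 9 h, and 800 and 785 at 12 h. It was called at each time against DMSO, but the 6 h call was lost in 9 alternatives and the 9 h call in 2, and the 6, 9 and 12 h groups differed from each other by no more than 0.12 on the log2 scale. PMF1 (227 and 228 in DMSO, 215 and 234 at 6 h) was not called at 6 h (−0.02) or 9 h (−0.23), and 23.3% of its exon bases also belong to the readthrough gene PMF1-BGLAP. KNL1, the third arm of the network and not among the 49, was looked at after values had been seen, and its changes were −0.74, −1.33 and −2.06. ZWINT, which binds KNL1 and helps recruit the ROD-ZW10-ZWILCH complex, changed by −0.53, −0.91 and −1.46 at 6, 9 and 12 h.

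**Figure D3:**
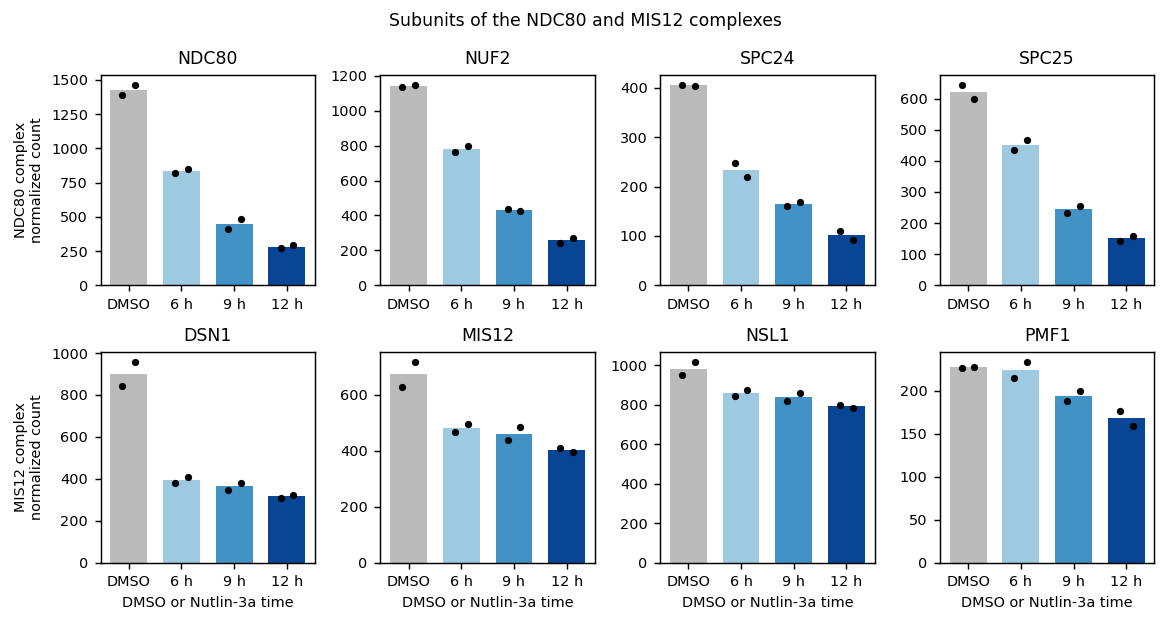
Normalized counts (vertical axes, from 0) of the 4 NDC80 complex subunits (upper row) and the 4 MIS12 complex subunits (lower row) in DMSO and at 6, 9 and 12 h of Nutlin-3a. Bars are means of 2 libraries and points are the libraries; NDC80 subunits step down at each time, DSN1 has most of its decrease by 6 h, and NSL1 and PMF1 have smaller decreases, with 12 h log2 changes of −0.31 and −0.44.

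The SKA complex tracks microtubule ends beside NDC80, and its subunits split. SKA1, its microtubule-binding subunit, had 655 and 708 in DMSO, 359 and 385 at 6 h, 203 and 185 at 9 h, and 116 and 99.9 at 12 h. SKA3, its link to NDC80, had 2186 and 1965 in DMSO, 954 and 984 at 6 h, 751 and 750 at 9 h, and 475 and 468 at 12 h. Neither gene's groups overlapped, and the 12 h changes were −2.65 ± 0.10 for SKA1 and −2.13 ± 0.07 for SKA3. SKA2 had 1490 and 1727 in DMSO, 1486 and 1460 at 6 h, 1139 and 1235 at 9 h, and 1142 and 1160 at 12 h. It was not called at 6 h (−0.12), although it was without DMSO replicate 1 (−0.23), and its changes at 9 and 12 h, both called, were −0.44 and −0.48. The 9 h and 12 h libraries of SKA2 overlapped.

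CENPF and CENPE belong to the fibrous corona, the outer layer that captures microtubules, and all 3 genes of this group fell at each time. CENPF, a large coiled-coil protein and the member with the highest counts, had 10298 and 10520 in DMSO, 7561 and 7393 at 6 h, 4414 and 4128 at 9 h, and 2762 and 2646 at 12 h. CENPE, a plus-end kinesin, had 3624 and 3887 in DMSO, 2199 and 1986 at 6 h, 1340 and 1377 at 9 h, and 911 and 978 at 12 h. Both genes stepped down without overlap. CENPF changed by −0.48, −1.29 and −1.94 and CENPE by −0.84, −1.47 and −1.99 on the log2 scale at 6, 9 and 12 h. ZWILCH, which helps bring dynein and MAD1 to kinetochores, fell by 0.95 on the log2 scale at 12 h.

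Of the 6 spindle checkpoint genes, all fell at 6 and 9 h and 5 at 12 h, with medians of −0.66, −1.45 and −2.02. BUB1B encodes BUBR1, part of the complex that inhibits the anaphase-promoting complex. Its counts were 2431 and 2279 in DMSO, 1177 and 1177 at 6 h, 679 and 658 at 9 h, and 426 and 400 at 12 h. The groups were well separated and the 12 h change was −2.51 ± 0.06 (limma, adjusted p = 2.48e-17). TTK, the kinase MPS1 that starts checkpoint signalling, had a 12 h log2 change of −2.24, the kinase BUB1 one of −2.22 and MAD2L1 (MAD2), which binds CDC20, one of −1.82. BUB3, the partner of BUB1 and BUBR1, changed by −0.65, with 2998 and 3073 normalized counts at 12 h, against 4575 and 4934 in DMSO.

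MAD1L1 (MAD1), the kinetochore anchor of MAD2, was the exception of the checkpoint group. It had 1312 and 1205 in DMSO, 1054 and 1052 at 6 h, 1108 and 1144 at 9 h, and 1134 and 1154 at 12 h. Its lowest libraries were those at 6 h, and all treated libraries lay below both DMSO libraries. The log2 changes were −0.26, −0.16 and −0.14 ± 0.06, and at 12 h it was the single member not called (limma, adjusted p = 0.0832). Its values turned on the DMSO libraries. Without DMSO replicate 1 the 9 and 12 h changes were −0.098 and −0.075 and neither was called, and without DMSO replicate 2 they were −0.22 and −0.20 and both were called. The 9 h call was lost in 17 alternatives in all.

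All 4 subunits of the chromosomal passenger complex fell at each time, with medians of −0.79, −1.45 and −2.02. CDCA8 (borealin), which targets the complex to the centromere, had 2173 and 2141 in DMSO, 1017 and 1054 at 6 h, 522 and 533 at 9 h, and 309 and 281 at 12 h. Its groups were widely separated, and the 12 h change was −2.87 ± 0.07, or 7.29-fold lower than DMSO. AURKB, the kinase, changed by −2.43 and INCENP, the scaffold that activates it, by −1.55 at 12 h. BIRC5 (survivin), another targeting subunit, had 3404 and 3637 in DMSO, 2806 and 2917 at 6 h, 1710 and 1865 at 9 h, and 1128 and 1170 at 12 h. Its log2 changes were −0.30, −0.98 and −1.61, the smallest of the 4 subunits at 6 and 9 h.

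The shugoshins, which shield centromeric cohesin, both fell. SGO1 had 358 and 343 in DMSO, 226 and 197 at 6 h, 96.6 and 139 at 9 h, and 74.5 and 86.4 at 12 h. SGO2 had 1924 and 2111 in DMSO, 1157 and 1045 at 6 h, 715 and 740 at 9 h, and 517 and 539 at 12 h. Neither overlapped between groups, and the 12 h changes were −2.11 ± 0.15 and −1.93 ± 0.07. The change of SGO1 at 12 h against 9 h was −0.52 with all libraries and −0.27 without 9 h replicate 2, its call was lost in 13 alternatives, and 17.7% of its exon bases are shared with SGO1-AS1.

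All 5 spindle assembly genes fell at each time, with medians of −0.65, −1.20 and −1.85. ASPM, a spindle pole protein, had 5167 and 5414 in DMSO, 3137 and 3126 at 6 h, 1590 and 1586 at 9 h, and 1070 and 1072 at 12 h, and its 12 h change was −2.30 ± 0.05 (limma, adjusted p = 3.75e-18). Replicates of ASPM were nearly equal in each Nutlin-3a group. The 12 h log2 changes were −1.97 for the kinase AURKA, −1.83 for its activator TPX2, −1.85 for NUSAP1, which bundles microtubules, and −1.69 for SPAG5 (astrin), which stabilises attachments. NUSAP1 shares 62.2% of its exon bases with the same-strand gene AC087721.2, which is not among the counted genes. PMF1-BGLAP and SGO1-AS1 are not among them either. Whether the annotation used for counting held these genes is not given, so the reads of NUSAP1 stay uncertain.

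The log2 changes between Nutlin-3a times do not use the DMSO levels. Their calls do depend on the DMSO libraries, since the spread was estimated over all 8 libraries. At 9 h against 6 h, 38 of 49 genes fell further (9.9% of all tested genes), and at 12 h against 9 h 33 fell (2.92%), with median log2 changes of −0.57 and −0.49. Over the whole span, at 12 h against 6 h, 44 fell (17.1%), with a median of −1.06, where the median of all tested genes was −0.00. By limma 0 rose in each of the 3 comparisons (8.52%, 1.08% and 14.4% of all tested genes), and at an unadjusted p under 0.05 the counts were 0, 0 and 1. CENPT changed by 0.13 at 12 h against 6 h. It was not called with all libraries, but was called as risen when DMSO replicate 1 or DMSO replicate 2 was left out. By edgeR 38, 31 and 44 fell (9.68%, 2.74% and 16.5%) and 0 rose (8.77%, 1.32% and 15.3%). By DESeq2 37, 30 and 43 fell (9.06%, 3.15% and 14.5%) and 0 rose (6.83%, 1.16% and 11.2%). Both steps were called for 32 genes (2.31% of all tested genes). HJURP and ASPM had the largest decreases at 9 h against 6 h, of −1.10 and −0.98, and CENPA and HJURP at 12 h against 9 h, of −0.89 and −0.88. CENPA and HJURP also led at 12 h against 6 h, with −1.81 and −1.98. The count at 12 h against 9 h was 24 without an intensity trend and 40 with group weights.

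For the 37 genes whose log2 change at 12 h was below −1, the share of that change already present at 6 h had a median of 36.5%, and at 9 h of 71.2%. This share was computed with a common 12 h change, so it is given as a description. Of these 37, DSN1 had the highest share at 6 h, 82.1% and 75.6% in its 2 libraries. CENPL and CENPO came next, CENPO with 58.2% and 56.3%. BIRC5 had the lowest, 20.2% and 16.7%, and SPC25 had 25.3% and 20.3%. The libraries of DSN1 and BIRC5 were far apart in this measure. By role, medians at 6 h ran between 32.8% for spindle assembly genes and 42.1% for SKA1 and SKA3, and the ranges within roles overlapped. Outside the 37, CENPP had shares of 79.2% and 83.4% at 6 h and CENPC of 68.9% and 83.9%. Their 12 h log2 changes were −0.99 and −0.83.

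**Figure D4:**
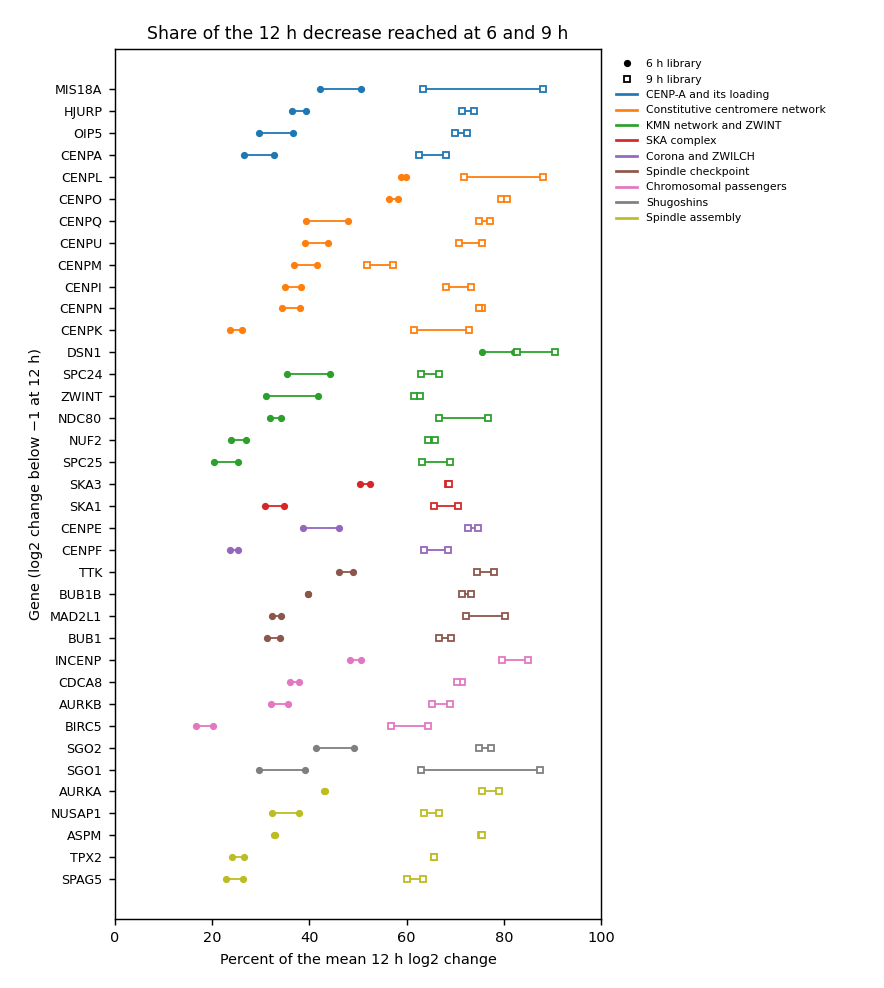
Percent of the mean 12 h log2 change (horizontal axis) seen in each 6 h library (filled circles) and 9 h library (open squares) for the 37 genes with a 12 h change below −1 (rows, coloured by role). Most 6 h libraries lie near the median of 36.5%, DSN1 lies far to the right and BIRC5 farthest to the left.

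Promoter windows from 250 bases before to 50 bases after the annotated start were matched in RefSeq (GRCh38.p14) for 40 of the 49 genes, in 46 windows. CENPH, CENPL, CENPM, MIS18A, BUB3, TTK, BIRC5, AURKA and TPX2 were not used here. The CHR is bound by the MuvB core of the DREAM complex, the CCAAT box by NF-Y, and E2F sites by E2F factors, all known from cell cycle promoters. On both strands, the CHR letters (TTTGAA or TTCGAA) were in 24 of the 46 windows (52.2%), beside 11.9% of the 15434 windows of other tested genes and 16.4% of all 35116 windows. CCAAT was in 31 windows (67.4%), beside 34.1% and 34.6%. The E2F letters (TTTGGCGC, TTTCCCGC, TTTGCCGC or TTTCGCGC) were in 6 windows (13%), beside 4.74% and 3.31%. Letters of the CHR overlap those of a CCAAT box in CDCA8, and the windows of OIP5 and NUSAP1, which start in opposite directions, share 211 bases. The E2F match of OIP5 and that of NUSAP1 lie on the same bases there, so a single site counts for both genes. ZWINT has the same CHR match in its 2 windows, and MIS12 has E2F letters in each of its 2 windows.

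Most CHR matches of the members lay close to the start. Between 40 bases before and 50 bases after it, a range chosen after the positions had been seen, 21 windows (45.7%) held a match, beside 3.14% of windows of other tested genes and 4.53% of all windows. In the printed stretches, the CHR begins 18 bases before the start in CENPA, 23 in BUB1B and CDCA8, and 10 in INCENP. NDC80 has a pair of adjoining matches across its start. CDCA8 and INCENP each carry 3 CCAAT boxes in the stretch and CENPA 1.

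By size of change, CHR letters were in 12 of the 15 genes with a window that fell at least 4-fold at 12 h, in 9 of the 15 that fell 2-fold to 4-fold, and in 2 of the 10 with smaller changes, CENPC and CENPW. CENPQ, CENPU and AURKB fell at least 4-fold with no CHR match in the window. The other motifs showed little such gradient. In the same order, CCAAT was in 10 of 15, 10 of 15 and 7 of 10 genes, and the E2F letters in 2, 2 and 1. Over genes, the median 12 h log2 change was −2.04 in the 23 with a CHR match (−3.19 to −0.46) and −1.36 in the 17 without (−2.43 to −0.14). For CCAAT the medians were −1.85 in the 27 with a match (−3.19 to −0.44) and −1.69 in the 13 without (−2.65 to −0.14). For the E2F letters they were −1.85 in the 5 with a match (−2.58 to −0.74) and −1.82 in the 35 without (−3.19 to −0.14). The ranges with and without a match overlap widely for each motif. The comparisons were given no test, and a match describes letters and not binding.

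**Figure D5:**
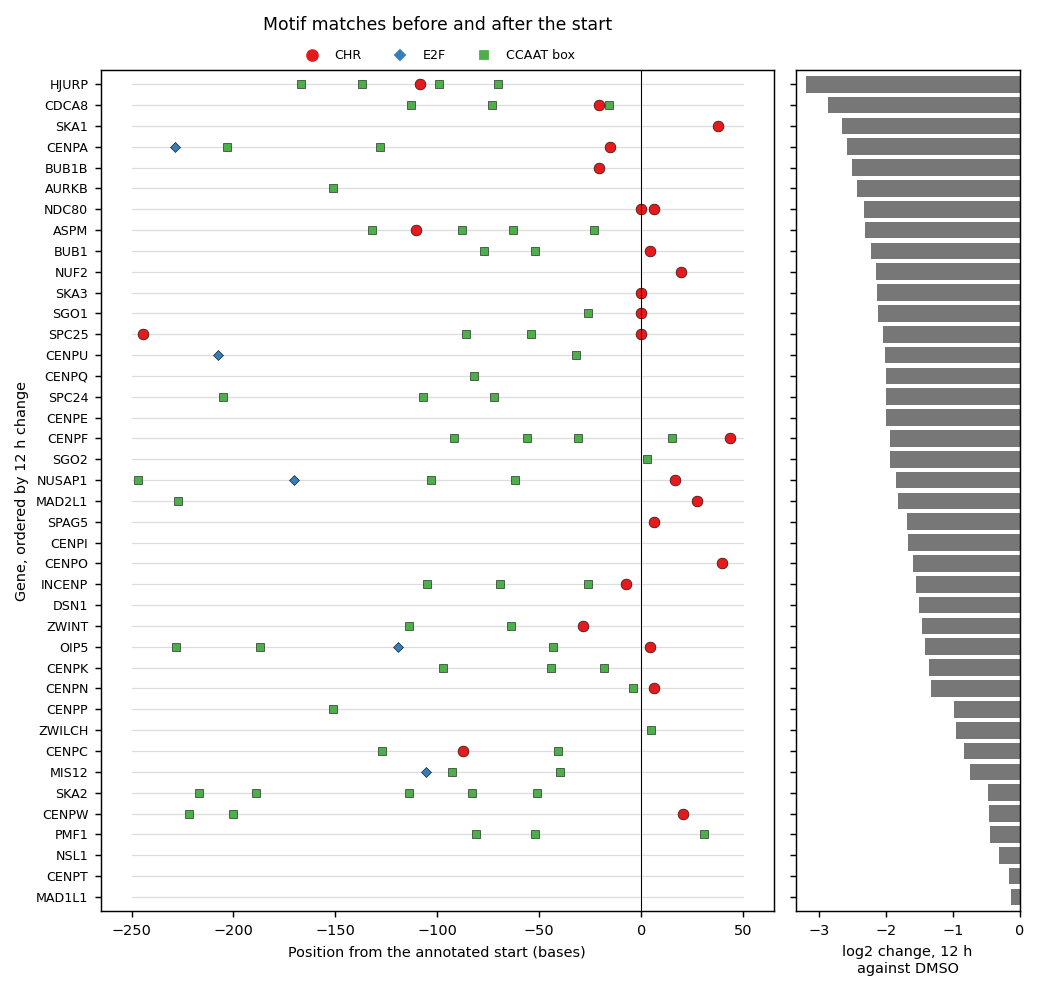
Positions of CHR (circles), E2F (diamonds) and CCAAT (squares) matches relative to the annotated start, in bases, for the 40 genes with a window, ordered by their log2 change at 12 h against DMSO (bars, right). A single window is drawn for each gene; CHR matches gather around the start in many upper rows, and NSL1, CENPT and MAD1L1, at the bottom, have no match.

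Decreases were also counted in 40 further genes of kinetochore and spindle function, listed with earlier results of these data known. Of these, 33, 34 and 35 fell at 6, 9 and 12 h (20.6%, 19.1% and 21.4% of all tested genes), and 0, 0 and 1 rose (16.1%, 16.2% and 18.5%), with median log2 changes of −0.47, −0.94 and −1.26. The 4 with the smallest p at 12 h were KIF2C, a microtubule-depolymerising kinesin (−2.39), KIF11, the kinesin that separates spindle poles (−2.25), CDC20, the checkpoint's target (−2.24), and TACC3, which crosslinks spindle microtubules (−2.04). NDEL1, a dynein regulator, was the gene that rose at 12 h, by 0.19 on the log2 scale. At 12 h against 6 h, NDEL1 (0.19), CLASP1 (0.19) and NUMA1 (0.14) rose, and CLASP1 also rose at 9 h against 6 h (0.23). Both CLASP1 and NUMA1 had fallen at 6 h against DMSO, by log2 changes of −0.24 and −0.13. Neither CLASP1 nor NUMA1 was called at 12 h against DMSO, with changes of −0.04 and 0.00.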

How the data were processed

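PolyA RNA was turned into strand-marked libraries, per the labels' protocols. STAR, DESeq2 and the build hg19 are named in the submitters' processing notes. Which tool counted reads, with which strand setting and gene annotation, is not given in the sources used here. Gene counts in the table the authors deposited were divided by a size factor per library, giving a normalized signal. Entries for reads assigned to no gene (3 of them, 28.2 to 29.1% of each library) were left out. The authors also deposited DESeq2 tables with log2 fold changes, a Wald score, p-values and adjusted p-values, whose fold changes put DMSO on top; their sign is reversed here.

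Values were whole multiples of 1 read, and 100% of them came out whole within 1e-06, so reads were recovered for edgeR 4.0.16 and DESeq2 1.42.0. The main test was limma 3.58.1 (R 4.3.3) with an intensity trend on log2(normalized count + 1), which understates changes of low genes, over 8 libraries (degrees of freedom 4 residual and 15.5 prior). Genes entered if 2 or more libraries had a value of 10 or more, and p-values were adjusted by Benjamini and Hochberg over all of them at 0.05. A gene called at this threshold is said to have risen or fallen. The fit was tested on simulated data first. With 2 libraries a group, an exact permutation test cannot go below 0.333.

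Members and lists were chosen with earlier results of these data known. Full values are given, by rule, for the gene with the smallest p and the gene with the largest decrease at 12 h in each role, for genes not called at 12 h, and for the 2 largest decreases in each comparison between Nutlin-3a times. Of the 40 further genes, the rule took the 4 with the smallest p at 12 h and every gene that rose. SKA2, CENPT, CENPW, CENPP, CENPC, DSN1, NSL1, PMF1, BUB3 and BIRC5 were singled out after their values had been seen. Exon overlaps were read from GENCODE for GRCh38, used only for names and neighbours because the files' build differs. The floor of 3 reads reflects counting error alone, as PCR copies carried no marks. Alternatives were pseudocounts, filters, scalings, weights, a replicate block, fits of fewer libraries, edgeR, DESeq2 and the deposited tests.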

Additional observations from a re-analysis of the deposited data

Results flagged for a closer look

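A comparison between Nutlin-3a times is a direct test of whether the changes from DMSO differ between those times, and 3 counts of genes were set aside because of it. By limma, 38 of the 49 genes were called as fallen at 9 h against 6 h (9.9% of all tested genes), 33 at 12 h against 9 h (2.92%) and 44 at 12 h against 6 h (17.1%).

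Single genes set aside for the same reason were those with the largest decreases (limma, adjusted over all tested genes). HJURP changed by −1.10 and ASPM by −0.98 on the log2 scale at 9 h against 6 h. CENPA changed by −0.89 and HJURP by −0.88 at 12 h against 9 h. At 12 h against 6 h, HJURP changed by −1.98 and CENPA by −1.81. In each of these, both libraries of the later time lay below both of the earlier time. No group of 4 or more libraries existed, so single outlying libraries could not be assessed.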

How the results depend on the processing

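No count of fallen genes moved by more than 1.5 times under any alternative. Leaving out 1 library at a time gave 44 to 47 genes at 6 h, 45 to 47 at 9 h and 47 to 49 at 12 h against DMSO. It gave 35 to 39 at 9 h against 6 h, 27 to 40 at 12 h against 9 h and 41 to 44 at 12 h against 6 h. The other alternatives gave 44 to 46, 45 to 47, 47 to 48, 33 to 39, 24 to 40 and 42 to 44 in the same order.

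Direction reversed in 10 cases, all for genes that were not called. For PMF1 at 6 h against DMSO the log2 change became 0.0262 with quantile normalization and 0.0015 with edgeR, and lay between −0.0787 without 6 h replicate 2 and 0.0390 without 6 h replicate 1. For CENPW at 6 h it lay between −0.10 without DMSO replicate 1 and 0.173 without DMSO replicate 2. At 9 h against 6 h, leaving out 1 library gave −0.0671 to 0.0033 for NSL1, −0.141 to 0.0089 for MIS12 and −0.0546 to 0.0725 for CENPT. At 12 h against 9 h it gave −0.102 to 0.0148 for SKA2 and −0.488 to 0.0679 for CENPP, and at 12 h against 6 h −0.463 to 0.0930 for CENPP. Each of these ends came from leaving out a library of the groups compared. The cause was not tested.

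Same-numbered libraries did not deviate together, with correlations between −0.15 and 0.09. The labels do not say what same-numbered libraries had in common beyond the number, and these correlations cannot settle it. With the replicate number as a block, 46, 46 and 48 genes fell at 6, 9 and 12 h, and 37, 32 and 44 fell at 9 h against 6 h, 12 h against 9 h and 12 h against 6 h. A crossed pairing of DMSO and 6 h libraries, chosen after seeing the data, gave 46.

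The main limits are 2 libraries a group, a DMSO group shared by all times with no stated duration, and counting whose strand setting is not given. Exons of some members overlap other genes, and transcript levels do not show protein levels.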
